A study of Mus musculus with 12 samples.

Results

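The genes described here are a set of imprinted genes that regulate growth: Igf2, H19, Dlk1, Meg3, Peg3, Peg10, Plagl1, Cdkn1c, Grb10 and Mest. Every probe set (a group of short probes designed on a listed sequence) whose only listed gene symbol was in this set was taken. This gave 29 of 45101 probe sets and covered 9 of the 10 genes. H19 was measured only by a probe set listed for both Mir675 and H19, and that probe set is given apart from the 29. In all, 18193 genes had a probe set with a single listed symbol. Of the 29, 23 passed a filter on low values (log2 over 4 on at least 3 arrays). The 6 that did not were 1 probe set each of Igf2, Dlk1, Peg10 and Plagl1 and a pair of Peg3, and Peg10 had no other.

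An imprinted gene is expressed mainly from the allele inherited from one parent, under the control of DNA regions whose methylation differs between the maternal and paternal copies. In most tissues Igf2, Dlk1, Peg3, Peg10, Plagl1 and Mest are expressed mainly from the paternal copy. H19, Meg3 and Cdkn1c are expressed mainly from the maternal one. Single tissues can differ, and the active copy of Grb10 depends on the tissue, being the paternal one in neurons. Genes expressed from the paternal copy often promote growth and those from the maternal copy often restrain it, and many of them are highly expressed in the embryo and decline after birth. The values below add both alleles together and do not show which parental copy was read.

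The study asked which genes depend on Kat6b (also Qkf or Myst4), a histone acetyltransferase, in brain tissue of 129/Sv mice at 2 stages. The adult groups held dorsal cerebral cortex of wild-type males aged 155, 112 and 101 days and of Qkf gt/gt males, which carry a gene-trap insertion on both alleles, aged 155, 112 and 99 days. The embryonic groups held dorsal telencephalon at E12.5, wild type or Qkf gt/gt, with no treatment named in the labels for any group. Each of the 4 groups had 3 arrays, and a gene trap present in every cell does not separate effects within the tissue from those outside it.

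The embryos came from 2 crosses by the parents in the labels: wild type 1 and mutant 1 from the first cross, and the other 4 embryos from the second. The embryos of the first cross stood apart, with higher markers of the ventral telencephalon, the region next to the one dissected. The mean log2 value of 13 such markers was 5.96 and 5.56 in them and 3.38 to 4.15 in the other 4 embryos. Among adults, mutant 3 stood apart in choroid plexus markers (mean of 14 markers 4.78, against 3.05 to 3.22 on the other 5 arrays). Adult mutants 1 and 2 had larger gaps between 3' and 5' actin probe sets (1.91 and 1.47) than the other adults (1.06 to 1.13), a sign of RNA quality. Markers of adult cortical neurons averaged 11.8 to 12.1 in adults and markers of the dorsal telencephalon 10.4 to 11.0 in embryos, against 5.23 to 5.62 and 6.26 to 6.43 at the other stage. The targeted gene Kat6b was 9.68, 9.35 and 9.72 in adult wild types and 7.25, 7.17 and 6.92 in adult mutants, and 11.28, 11.40 and 11.42 in embryonic wild types against 6.22, 7.24 and 7.72 in embryonic mutants.

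Promoter windows of RefSeq transcripts (GRCm38.p6, 250 bases before the start and 50 after it) were at hand for 7 of the 10 genes, and H19, Cdkn1c and Peg10 had none. The windows were searched on both strands for TGCCGC, the hexamer that the imprint-maintaining zinc finger protein ZFP57 binds when it is methylated. It occurred in 6 of the 14 windows, against 11.6% of all 32851 windows, but the 6 include a pair of nearly coinciding Mest windows that share the same 2 matches. The windows below were chosen because they hold the hexamer, 1 for each of the 5 genes that have such a window. Capitals mark TGCCGC or its reverse complement, and every window is written 5′ to 3′ on the gene's own strand.
Igf2, 1 of 4 starts, chr7:142661222-142661521, minus strand: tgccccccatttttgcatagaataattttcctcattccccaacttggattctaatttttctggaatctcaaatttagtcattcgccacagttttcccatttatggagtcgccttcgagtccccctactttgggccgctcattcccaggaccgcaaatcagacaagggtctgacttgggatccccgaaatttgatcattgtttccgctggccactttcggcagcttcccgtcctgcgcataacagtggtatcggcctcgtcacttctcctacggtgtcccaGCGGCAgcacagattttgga
Meg3, 1 of 2 starts, chr12:109540746-109541045, plus strand: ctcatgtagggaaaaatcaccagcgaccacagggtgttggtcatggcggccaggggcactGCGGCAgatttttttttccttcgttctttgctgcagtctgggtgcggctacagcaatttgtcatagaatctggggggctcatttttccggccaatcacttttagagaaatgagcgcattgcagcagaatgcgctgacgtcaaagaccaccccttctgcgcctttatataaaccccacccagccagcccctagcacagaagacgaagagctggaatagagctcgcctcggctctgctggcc
Plagl1, chr10:13090582-13090881, plus strand: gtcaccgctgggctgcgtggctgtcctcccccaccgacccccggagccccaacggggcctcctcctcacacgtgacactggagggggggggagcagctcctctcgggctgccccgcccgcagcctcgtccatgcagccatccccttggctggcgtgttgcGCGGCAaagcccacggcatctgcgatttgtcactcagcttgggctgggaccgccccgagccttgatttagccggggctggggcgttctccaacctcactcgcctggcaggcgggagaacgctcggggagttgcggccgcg
Grb10, 1 of 2 starts, chr11:12037371-12037670, minus strand: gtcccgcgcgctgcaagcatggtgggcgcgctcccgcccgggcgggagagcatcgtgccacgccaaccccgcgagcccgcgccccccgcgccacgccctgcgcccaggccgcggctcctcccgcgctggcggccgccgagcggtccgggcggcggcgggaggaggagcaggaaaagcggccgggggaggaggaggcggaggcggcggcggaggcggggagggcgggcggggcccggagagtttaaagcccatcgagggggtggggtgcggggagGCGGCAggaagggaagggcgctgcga
Mest, 1 of 3 starts, chr6:30737800-30738099, plus strand: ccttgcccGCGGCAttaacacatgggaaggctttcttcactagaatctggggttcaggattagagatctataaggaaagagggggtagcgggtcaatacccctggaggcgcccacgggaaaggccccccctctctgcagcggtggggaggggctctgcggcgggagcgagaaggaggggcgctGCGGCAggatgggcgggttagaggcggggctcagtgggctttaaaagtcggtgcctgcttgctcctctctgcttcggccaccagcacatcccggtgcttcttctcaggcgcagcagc
The printed Grb10 window had 45 CG pairs and the Plagl1 window 26, while those of Mest, Igf2 and Meg3 had 17, 14 and 13. Other windows of the same genes had fewer: the second Meg3 window had 1, the second Grb10 window 9, the first Mest window 8, and the first and last of Igf2 2 and 7, while another of Igf2 had 24. The Dlk1 window had 9 and the Peg3 window 13, and the median of all windows was 7. A match describes these letters only and is not evidence of binding.

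**Figure D1:**
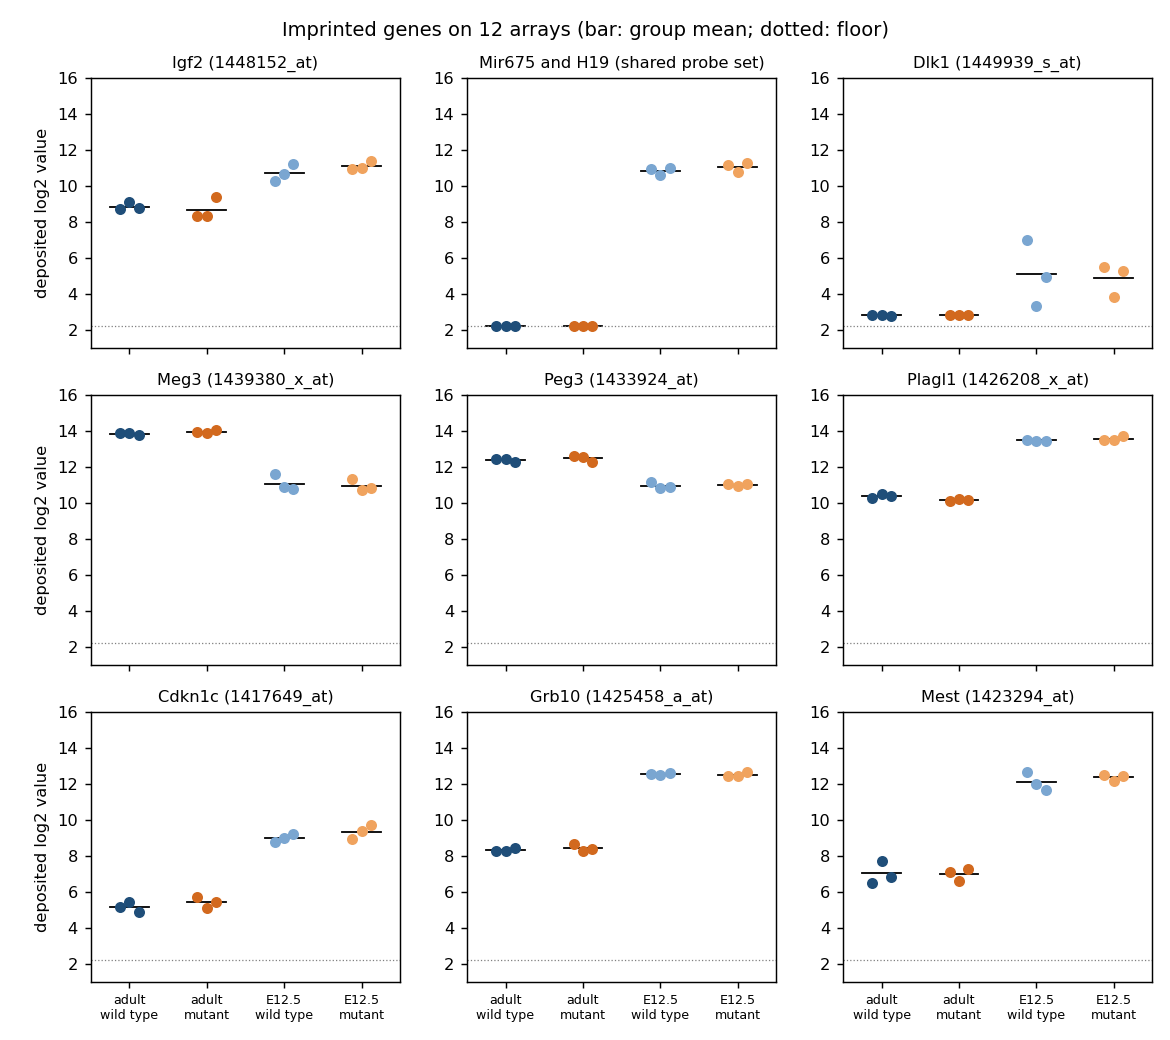
Deposited log2 value (vertical axis) of 1 probe set per gene on each of the 12 arrays, in panels by gene and in columns by stage and genotype, with a bar at each group mean and a dotted line at the floor. Within each stage the mutant points lie among or close to the wild-type points, while the stages are apart in every panel.

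No imprinted growth gene passed the test between mutants and wild types at either stage. By limma with Benjamini-Hochberg adjustment over 20292 probe sets, 0 of the 23 probe sets were called (adjusted p under 0.05) in adult cortex and 0 of 23 in embryonic telencephalon. Few probe sets of any gene were called: 0.0246% in adults and 0.0641% in embryos. At an unadjusted p under 0.05 there were 0 of 23 in adults, where 4.58% of all probe sets reached it, and 1 of 23 in embryos, where 4.53% did. The 1 in embryos, Grb10 1425457_a_at, passed the filter only through wild-type embryo 3 (4.11) and mutant embryos 1 and 3 (4.53 and 5.24). The filter thus favoured a probe set that is high in mutants, and its p-value is no support for a difference. The groups did not overlap for 2 of 23 probe sets in adults, against 9.65% of all, and for 0 in embryos, against 7.65%. The median log2 difference, mutant minus wild type, was 0.06 over the 23 in adults (all probe sets 0.02) and 0.17 in embryos (all -0.01). Of the 23 probe sets 11 were of Meg3, so these counts weigh that gene most, and its embryonic spread enters its adult p-values. The arrays measured whole tissue, where fewer cells of a type and less RNA per cell cannot be told apart.

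**Figure D2:**
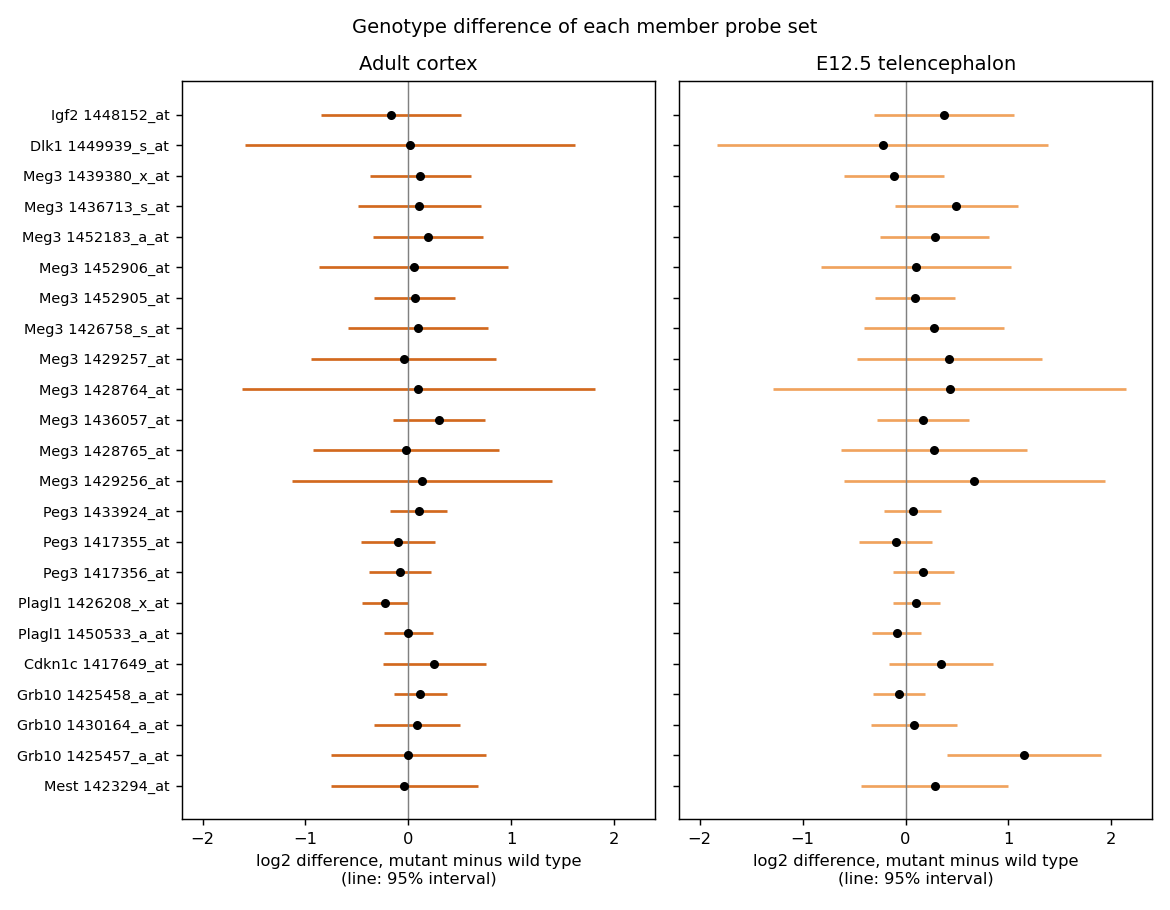
Log2 difference, mutant minus wild type, of each probe set past the filter, with adult cortex on the left and embryonic telencephalon on the right and lines for 95% intervals from limma. The intervals include 0 except that of the Grb10 probe set 1425457_a_at in embryos, whose adjusted p was 0.68. That interval is too narrow for embryos, since it shares its spread with adult arrays that all lay at the floor.

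Igf2 encodes a secreted growth factor that signals through the IGF1 receptor and, in the brain, is made mostly by the meninges, choroid plexus and vessels. Its well-measured probe set (1448152_at) read 8.71, 9.11 and 8.78 in adult wild types and 8.34, 8.34 and 9.41 in adult mutants. Mutants 1 and 2 were below every wild type and mutant 3 above them all. The means were 8.87 ± 0.22 and 8.69 ± 0.62 (SD, n = 3 each), and the log2 difference was -0.17 (95% interval -0.85 to 0.51, adjusted p = 1). Without mutant 3 it was -0.53 (adjusted p = 0.65). The choroid plexus marker Ttr, transthyretin, read 15.16 on the array of mutant 3 and 6.78 to 9.18 on the other 5 adult arrays. Markers of endothelium and pericytes averaged 5.71, 5.82 and 5.89 in the mutants and 5.56, 5.68 and 5.50 in the wild types, and the low mutants 1 and 2 are those with the larger actin gaps. The part of these measures in the Igf2 value was not tested.

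**Figure D3:**
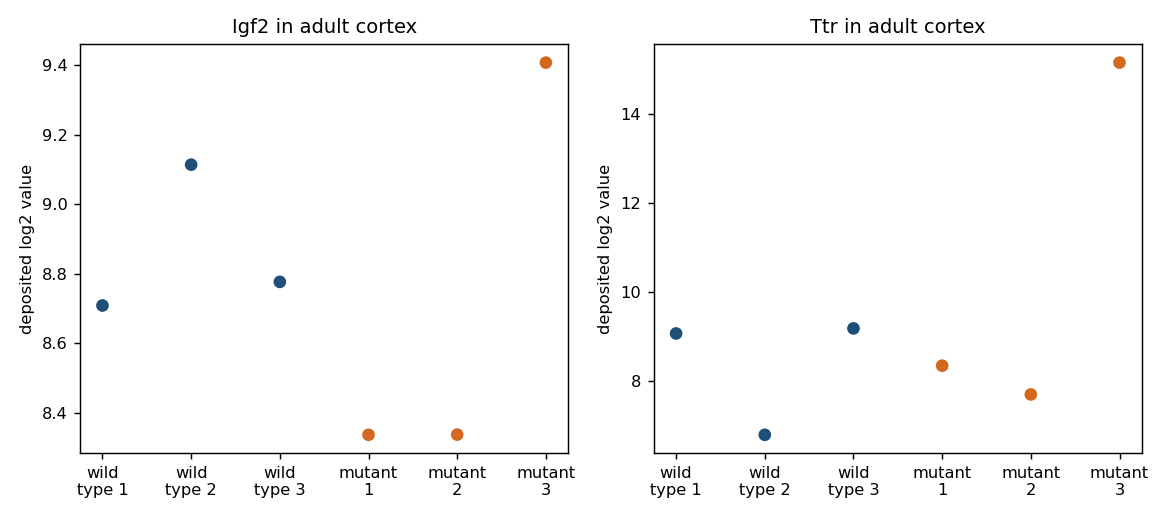
Log2 value (vertical axis) of Igf2, left, and of the choroid plexus marker Ttr, right, on the 6 adult arrays. Mutant 3, at 9.41 and 15.16, has the highest value of both.

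In embryos Igf2 read 10.29, 10.69 and 11.25 in wild types and 10.94, 11.00 and 11.41 in mutants. The groups overlapped, since wild type 3 was above mutants 1 and 2. The means were 10.74 ± 0.48 and 11.12 ± 0.26 (SD, n = 3 each), with a log2 difference of 0.38 (95% interval -0.30 to 1.06, adjusted p = 1). The effect in adults minus that in embryos was -0.55 and missed the test (adjusted p = 0.93). A second Igf2 probe set (1415931_at) was low throughout, at 2.41 on every adult array and 2.46 to 3.20 in embryos.

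The probe set listed for Mir675 and H19 (1448194_a_at) measures a locus next to Igf2 that yields a long noncoding RNA, with the microRNA Mir675 lying inside H19. In embryos it read 10.94, 10.62 and 11.02 in wild types and 11.20, 10.80 and 11.27 in mutants, and in adults it lay near the array floor of 2.19 on all 6 arrays (2.19 to 2.20). The embryonic groups overlapped, with a log2 difference of 0.23 (95% interval -0.08 to 0.54, adjusted p = 1 by limma over 23849 probe sets with and without a single symbol). The adult arrays at the floor enter the spread behind this interval, which is therefore too narrow for embryos. Embryonic Igf2 and this probe set were both lowest in wild-type embryos, but not in the same embryo.

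Dlk1 encodes a transmembrane protein related to Notch ligands, and Meg3 is the maternally expressed noncoding RNA of the same imprinted domain. Dlk1 (1449939_s_at) had the widest range among embryos of the 23 probe sets. It read 7.03, 3.31 and 4.93 in embryonic wild types and 5.49, 3.84 and 5.27 in mutants, and 2.78 to 2.84 in adults. The means in embryos were 5.09 ± 1.86 and 4.87 ± 0.90 (SD, n = 3 each). The log2 difference of -0.22 had a 95% interval from -1.83 to 1.39 and became 0.75 without wild type 1. The nearly constant adult arrays enter the spread behind this interval, so it is too narrow for embryos. A direction for Dlk1 in embryos could therefore not be given.

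Meg3 had 11 probe sets, all past the filter. On the probe set with the smallest difference between stages (1439380_x_at), adult wild types read 13.91, 13.89 and 13.81 and adult mutants 13.95, 13.92 and 14.08. The mutants were all above the wild types, by 0.12 on average (95% interval -0.37 to 0.60, adjusted p = 1), and this was the only Meg3 probe set without overlap in adults. The interval pools the spread of both stages and is too wide for adults. The SDs were 0.05 and 0.09 in adult wild types and mutants and 0.48 and 0.33 in the embryonic ones. Embryos read 11.64, 10.87 and 10.77 as wild types and 11.36, 10.74 and 10.84 as mutants, with overlap. Over the 11 probe sets the differences ran from -0.04 to 0.30 in adults and from -0.11 to 0.67 in embryos. None reached an unadjusted p under 0.05 by limma. On many of these probe sets the embryos varied more than the adults, so the adult p-values do not measure the adult spread alone.

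Peg3 encodes a zinc finger DNA-binding protein, and Plagl1 (also Zac1) encodes a zinc finger transcription factor that can halt the cell cycle and that regulates other imprinted genes. Peg3 (1433924_at) read 12.46, 12.47 and 12.31 in adult wild types and 12.65, 12.60 and 12.30 in adult mutants. In embryos it read 11.17, 10.83 and 10.89 as wild type and 11.07, 10.94 and 11.07 as mutant. Groups overlapped at both stages, with log2 differences of 0.10 in adults (95% interval -0.18 to 0.38) and 0.07 in embryos (-0.21 to 0.35). The other Peg3 probe sets past the filter differed by -0.10 and -0.08 in adults and by -0.09 and 0.17 in embryos.

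Plagl1 (1426208_x_at) was the member with the lowest unadjusted p in adults. It read 10.29, 10.50 and 10.42 in adult wild types and 10.12, 10.23 and 10.20 in adult mutants. Every mutant was below every wild type, by 0.22 on average (SE 0.10, 95% interval -0.45 to 0.00, unadjusted p = 0.051, adjusted p = 1 by limma). In embryos it read 13.53, 13.45 and 13.49 as wild type and 13.51, 13.52 and 13.76 as mutant, with overlap. The adult effect minus the embryonic effect was -0.33, with an unadjusted p of 0.044 and an adjusted p of 0.92. The second probe set past the filter (1450533_a_at) was at 2.19 on all 6 adult arrays, so it holds no adult comparison of genotypes. The probe set not past the filter (1438588_at) read 2.66 to 2.98 in adults. The adult level of Plagl1 and its adult genotype difference thus rest on 1426208_x_at alone. The probe sets disagree on the adult level, and whether 1426208_x_at reads Plagl1 alone was not tested.

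Cdkn1c encodes p57, an inhibitor of cyclin-dependent kinases that lets precursor cells leave the cell cycle. It read 5.19, 5.46 and 4.88 in adult wild types and 5.72, 5.12 and 5.46 in adult mutants. In embryos it read 8.79, 8.99 and 9.22 as wild type and 8.92, 9.40 and 9.71 as mutant. The groups overlapped at both stages, with log2 differences of 0.25 (95% interval -0.25 to 0.76) in adults and 0.34 (-0.16 to 0.85) in embryos, both with an adjusted p of 1.

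Grb10 encodes an adaptor protein that binds the insulin and IGF1 receptors and dampens their signalling. Its main probe set (1425458_a_at) read 8.28, 8.30 and 8.43 in adult wild types and 8.66, 8.30 and 8.40 in adult mutants, and 12.58, 12.53 and 12.65 in embryonic wild types against 12.43, 12.47 and 12.67 in embryonic mutants. The genotypes overlapped at both stages, with differences of 0.12 (95% interval -0.14 to 0.37) and -0.06 (-0.32 to 0.19). A weakly measured Grb10 probe set (1425457_a_at) read 2.86, 3.19 and 4.11 in embryonic wild types and 4.53, 3.86 and 5.24 in mutants, while adults were at 2.19. Mutant 2 lay below wild type 3, so the groups overlapped. The difference was 1.15 (SE 0.34, 95% interval 0.40 to 1.90, unadjusted p = 0.0061, adjusted p = 0.68), which was not past the test. The fit shares 1 estimate of the spread over the 4 groups, and the adult arrays at the floor had an SD of 0. The embryonic SDs were 0.65 and 0.69, so this SE, interval and unadjusted p are too small for embryos. The other Grb10 probe set (1430164_a_at) differed by 0.08 in embryos.

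Mest encodes an enzyme of the alpha/beta hydrolase family. It read 6.53, 7.74 and 6.85 in adult wild types and 7.09, 6.64 and 7.28 in adult mutants, a difference of -0.04 (95% interval -0.76 to 0.67). Embryos read 12.67, 11.99 and 11.66 as wild type and 12.52, 12.17 and 12.48 as mutant, a difference of 0.28 (95% interval -0.43 to 1.00). Both sets of groups overlapped. Peg10, which derives from a retrotransposon and acts in the placenta, lay between 2.19 and 2.50 on all 12 arrays and was not tested.

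For the difference between the adult and embryonic genotype effects, which uses all 12 arrays, 0 of 23 probe sets were called (0.0148% of all). At an unadjusted p under 0.05 there were 2 of 23, against 5.35% of all probe sets. They were Plagl1 1426208_x_at and Grb10 1425457_a_at, and the latter lay at the floor on every adult array, so its value only restates the embryonic difference. The limits given above for that Grb10 probe set hold here too.

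Between the stages, 6 of the genes were lower in adult cortex than in embryonic telencephalon while Meg3 and Peg3 were higher. In wild types all 23 probe sets past the filter were called by limma, 14 higher and 9 lower in adults, where 79.3% of all probe sets were called, 35.7% higher and 43.5% lower. The mutant arrays, which are other arrays, gave 23 of 23 (79.5% of all), each with the same sign as in wild types. The filter bears on this count, since 4 of the 23 exceeded a log2 value of 4 in embryos only. With most probe sets of any gene called, the count does not set these genes apart. As a description, the median absolute log2 difference was 3.80 over the 23 and 1.18 over all probe sets in wild types. Of the 23, 11 were of Meg3, and the 3.80 is itself the value of a Meg3 probe set. The median therefore does not weigh the genes evenly. Stage differences compare 2 dissections as well as 2 ages.

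**Figure D4:**
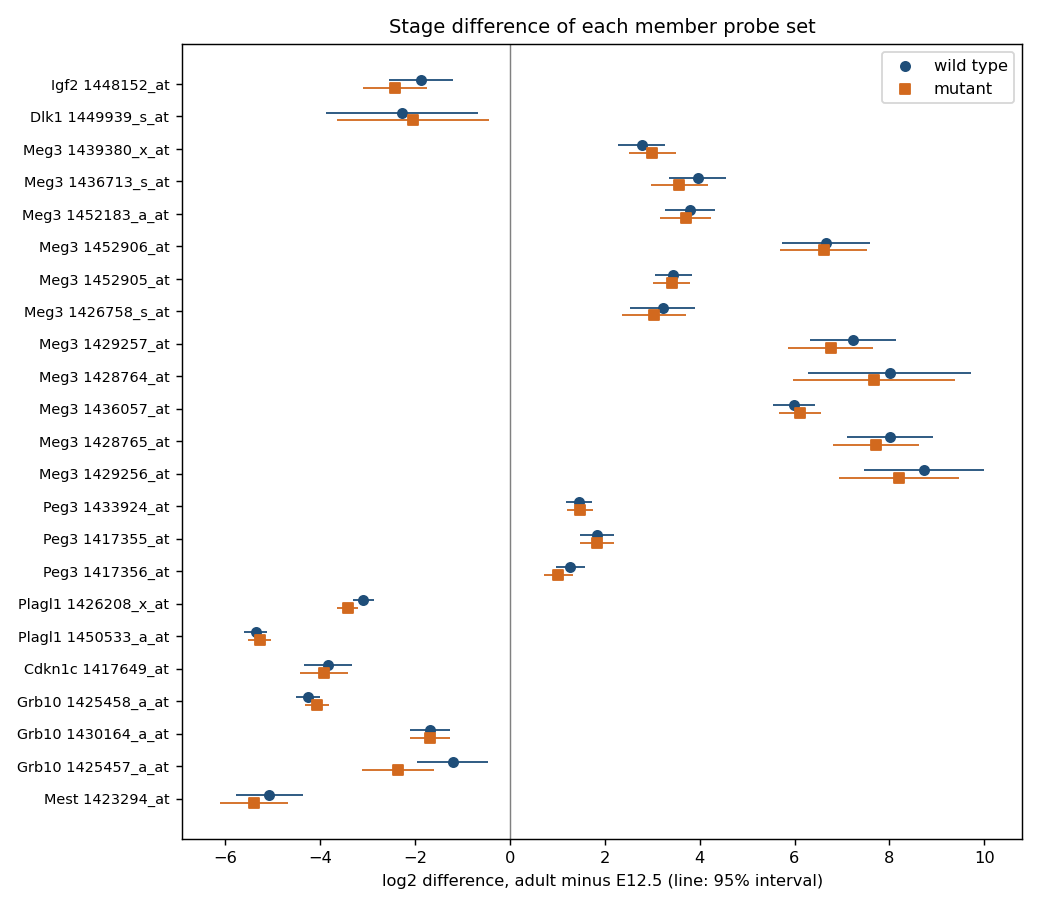
Log2 difference, adult minus embryonic (horizontal axis), of each probe set past the filter in wild types and in mutants, with lines for 95% intervals. Meg3 and Peg3 lie above 0 and Igf2, Dlk1, Plagl1, Cdkn1c, Grb10 and Mest below 0 in both genotypes.

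Among the genes lower in adults, Mest fell 33.5-fold in wild types (log2 difference -5.06, 95% interval -5.78 to -4.35, adjusted p = 5.01e-08) and 41.9-fold in mutants. Grb10 (1425458_a_at) fell by 4.25 on the log2 scale in wild types and by 4.07, or 16.8-fold, in mutants, and its weaker probe set 1430164_a_at fell by 1.68 in both. Cdkn1c fell 14.1-fold in wild types (log2 difference -3.82) and 15.1-fold in mutants. Plagl1 (1426208_x_at) fell 8.49-fold in wild types and 10.7-fold in mutants. Igf2 fell 3.67-fold in wild types (log2 difference -1.87, adjusted p = 1.61e-04) and 5.36-fold in mutants (adjusted p = 1.97e-05). All 6 adult arrays lay below all 6 embryonic arrays for each of these probe sets. The share of all probe sets that separate in this way is not given here, so this does not set these genes apart.

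Where adults lay at the floor of 2.19, differences understate the change. The probe set of Mir675 and H19 had log2 differences, adult minus embryonic, of -8.67 in wild types and -8.90 in mutants. Those of Plagl1 1450533_a_at were -5.36 and -5.27, and those of Grb10 1425457_a_at were -1.20 and -2.35. Dlk1, at 2.78 to 2.84 in adults, differed by -2.27 in wild types (adjusted p = 0.014) and -2.03 in mutants (adjusted p = 0.023), and these were the least secure calls of the set. The wild-type difference rested largely on single embryos: it was -1.31 without wild-type embryo 1 and -3.17 without wild-type embryo 2. The wild-type call ended with embryo sex as a covariate (adjusted p = 0.073 by limma). The adults were all male, so this covariate varied among embryos only, and the source of the embryo sex is not given here. The mutant call ended under 8 of 21 alternatives (adjusted p from 0.051 to 0.079), among them leaving out mutant embryo 1 (0.079), mutant embryo 3 (0.071) or any adult mutant (0.053 each).

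Marker means of blood and of meninges and mesenchyme differed between the stages. The mean log2 value of 9 blood markers was 2.58 to 2.98 in adults and 7.05 to 7.99 in embryos. The largest of these differences in wild types were those of the globin genes Hbb-y (-13.27), Hba-x (-10.77) and Hbb-bh1 (-10.69). Alas2 was not called (-0.97). The blood mean thus rests mostly on globin genes and is not a measure of the amount of blood. The mean of 20 markers of meninges and mesenchyme was 4.22 to 4.35 in adults and 5.63 to 6.20 in embryos. In wild types 10 of its 15 tested genes were called lower in adults and 4 higher, where 43.5% and 35.7% of all probe sets were. Means of endothelium and pericyte markers overlapped between the stages (5.50 to 5.89 in adults and 5.30 to 5.92 in embryos). Those of choroid plexus markers did too (3.05 to 4.78 and 3.75 to 5.09). The part of these tissues in the stage differences of Igf2, of the probe set of Mir675 and H19 and of Dlk1 was not tested.

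Meg3 and Peg3 went the other way. For Meg3, 11 of 11 probe sets were higher in adults in both genotypes, with log2 differences from 2.78 to 8.73 in wild types and from 3.01 to 8.20 in mutants. Probe sets designed on the same listed sequence differed too: 3 on 1 sequence gave 3.44, 8.01 and 8.02 in wild types. Pairs on 2 other sequences gave 3.22 and 3.80, and 7.23 and 8.73. They may read different parts of a sequence, and the cause of the spread was not tested. On 1452906_at the adults read 14.15 to 14.41, and the embryos 8.53, 7.10 and 7.17 as wild type and 8.64, 7.05 and 7.42 as mutant. Several embryonic values lay near the floor (1429256_at read 4.83, 2.95 and 2.30 in wild types), so the upper differences understate the change. Without wild-type embryo 1 the wild-type differences of 1429256_at and 1428764_at were 9.47 and 8.98, without wild-type embryo 3 that of 1428764_at was 7.32, and without mutant embryo 1 its mutant difference was 8.46. The size of the rise of Meg3 is thus given as a range and not as 1 value. For Peg3 the rise was 1.45, 1.84 and 1.28 on its 3 probe sets in wild types and 1.49, 1.84 and 1.02 in mutants, or 2.74-fold on 1433924_at in wild types.

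Embryos of the first cross had higher values of Dlk1 and of most Meg3 probe sets than embryos of the second. This pattern was noticed in the data and is a description, with no test. The 2 first-cross embryos lay above all 4 second-cross embryos in 10 of the 23 probe sets, of which 7 were Meg3, against 11.5% of all probe sets, and below them in 1, Cdkn1c, against 15.6%. Meg3 1428764_at read 6.54 and 6.60 in the first cross and 3.21 to 4.38 in the second. Dlk1, in the same imprinted domain, read 7.03 and 5.49 against 3.31 to 5.27. Mest and Cdkn1c were only narrowly apart, Mest at 12.67 and 12.52 against 11.66 to 12.48 and Cdkn1c at 8.79 and 8.92 against 8.99 to 9.71. The Peg3 probe set 1433924_at was barely apart, with a lowest first-cross value of 11.0748 and a highest second-cross value of 11.0738. The other Peg3 probe sets past the filter overlapped, so Peg3 is not counted as higher in the first cross.

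**Figure D5:**
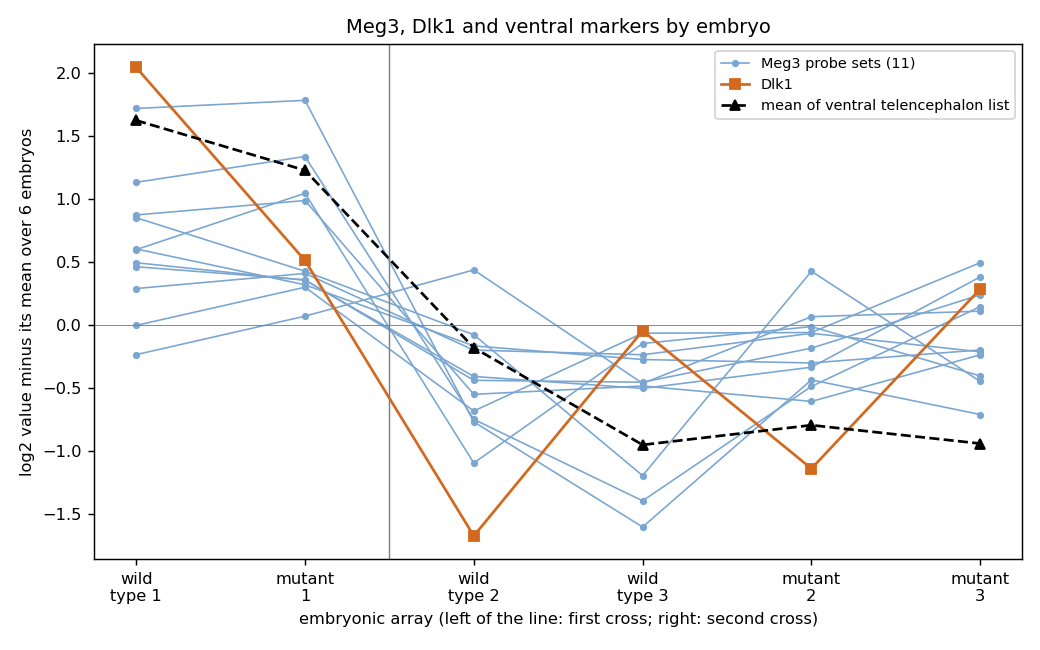
Log2 value minus its mean over the 6 embryos (vertical axis) for the 11 Meg3 probe sets, Dlk1 and the mean of the ventral telencephalon markers, with the 2 embryos of the first cross left of the line and the 4 of the second right of it. Dlk1, most Meg3 probe sets and the ventral markers are higher on the left.

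Other measures separated the crosses too. The ventral gene Dlx2 read 9.04 and 8.43 in the first cross and 3.20 to 5.80 in the second, and the dorsal gene Emx1 7.41 and 7.50 against 7.68 to 8.16. Choroid plexus markers were lower in the first cross (mean 3.98 and 3.75 against 4.40 to 5.09), with Ttr at 10.78 in both embryos. Blood markers were higher (7.99 and 7.67 against 7.05 to 7.42), and those of meninges and mesenchyme (5.63 and 5.76 against 5.87 to 6.20) and of endothelium and pericytes (5.30 and 5.54 against 5.72 to 5.92) were lower. Their part in the Meg3 and Dlk1 values was not tested. Each cross held both genotypes, and without the first cross the difference between mutants and wild types was 0.43 for Dlk1, 0.24 for Igf2 and 0.50 for Mest, none past the test.

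Of 61 other imprinted genes, 38 could be tested, each by its probe set with the highest mean. Between genotypes 0 of 38 were called at either stage. The lowest p-values in adults belonged to Sfmbt2 (log2 difference 0.68, adjusted p = 0.92), Cobl (0.29) and H13 (0.30), and in embryos to Sgce (0.42, adjusted p = 0.625), Usp29 (0.27) and Snrpn (0.32). Between stages in wild types 16 were higher in adults and 15 lower, with a median log2 difference of -0.04, where 35.7% of all probe sets were higher and 43.5% lower. The highest were Rasgrf1 (9.72), a Ras exchange factor, Nap1l5 (7.32), Cobl (6.51), an actin nucleator, and Ampd3 (4.80). The lowest were Peg12 (-6.64), Mkrn3 (-5.13), a ubiquitin ligase that restrains puberty, Nnat (-3.76), neuronatin, and Asb4 (-3.59). Adult Peg12, Mkrn3 and Asb4 and embryonic Rasgrf1 lay at or near the floor, so their differences understate the change and have no order among themselves.

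Of 37 genes of IGF and insulin signalling, through which Igf2 and Grb10 act, 27 were tested and 0 were called between genotypes at either stage. The lowest p-values were those of Akt2 (0.35), Akt1 (0.27) and Foxo3 (0.29) in adults and of Igfbp6 (0.40, adjusted p = 0.98), Igf2r (0.25) and Grb14 (-0.19) in embryos. Between stages in wild types 9 were higher in adults and 12 lower, again beside 35.7% and 43.5% of all probe sets. Igf2bp1 (-7.76) and Igf2bp3 (-7.47), which bind Igf2 mRNA, fell most, followed by the binding protein Igfbp2 (-2.79) and the receptor substrate Irs1 (-2.68). Igfbp6 (6.01), Grb14 (4.23), Pik3r1 (3.48) and the ligand Igf1 (1.27) were higher. The receptors, named after their values were seen, all fell in wild types, Igf2r, which clears Igf2, by 1.18, the insulin receptor gene Insr by 0.71 and Igf1r by 0.34. In mutants Igf1r was not called (log2 difference -0.24, adjusted p = 0.094).

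Of 15 genes listed for imprint maintenance and DNA methylation, 13 were tested and 0 were called between genotypes at either stage. Those with the lowest p-values were Arid4b (0.22), Trim28 (0.16) and Dnmt3a (0.20) in adults and Arid4b (-0.14), Ctcf (-0.14) and Arid4a (-0.20) in embryos. In wild types 11 of 13 were lower in adults and 0 higher, with a median of -2.01, where 43.5% of all probe sets were lower. They included Uhrf1 (-8.02), which guides the maintenance DNA methyltransferase, Dnmt1 itself (-2.18), Dnmt3b (-4.60) and Trim28 (-2.43), the partner of ZFP57. Arid4a (-0.23) and Zfp445 (-0.07) were the members not called. Adult Uhrf1 and Igf2bp1 lay at the floor, so their differences understate the change.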

How the data were processed

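The arrays were Affymetrix expression arrays, and the deposited values are log2 expression values made with GCRMA by the authors, per the submitters' processing notes. Its version and settings: not given in the sources used here. GCRMA corrects background by probe sequence and leaves a floor of 2.19, so differences from the floor are understated. Each log2 unit is a doubling. The arrays carry no counts, and their number limits the precision.

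Values were used as deposited. Of the probe sets, 34945 had 1 listed symbol, 932 several and 9160 none, and 64 were controls. Symbols were updated by gene ID for 34741 from RefSeq (GRCm38.p6). Probe sets with 1 symbol and log2 over 4 on at least 3 arrays were fitted (20292) with limma 3.58.1 in R 4.3.3 over all 12 arrays, with 4 group means and 8 residual degrees of freedom. Adjusted p-values are limma's, by Benjamini-Hochberg over all probe sets fitted. Intervals are 95%. P-values measure the spread between arrays of separate animals or embryos by label, and the labels do not say if an embryonic array held a single embryo. That spread is pooled over the 4 groups. Where the stages differ in spread, intervals are too narrow for the more variable stage and too wide for the other. The fit was tested on simulated data.

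The members and lists were chosen with earlier results of these data known. Named genes were every member and, per list, the 3 lowest p in each genotype contrast and up to 4 extreme called genes each way between stages. The receptor genes of the IGF list and the uncalled Arid4a and Zfp445 were named after their values were seen. Values in parentheses beside a gene are log2 differences.

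Embryos were paired by cross from the parents in the labels, and adults by age. Deviations from the group mean correlated across probe sets at 0.45 within the first cross, 0.13 to 0.19 within the second and -0.30 to -0.23 between crosses. The adult age pairs gave 0.19, 0.01 and 0.22. These pairs entered only an alternative, as a block. Other alternatives changed the filter, scaling, samples, weights, variance model, choice of probe sets, embryo sex and each array in turn.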

Additional observations from a re-analysis of the deposited data

How the results depend on the processing

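Between genotypes, 0 member probe sets were called under any of the 26 alternatives in adults, the 26 in embryos and the 25 for the difference between stages, while calls over all probe sets ran from 0 to 12, from 1 to 66 and from 0 to 12. With the pairs as a replicate block, 0 member probe sets were called in each of these 3 comparisons, so the block changed no call. The contrasts between stages could not be fitted with that block, since each pair lies in 1 stage. Between stages, 8 of 8 genes were called in each genotype with the probe set of the highest mean per gene, and 7 of 7 with probe sets averaged per gene, where a mean under the filter took 1 gene out. Quantile scaling and median centring left 14 probe sets higher and 9 lower in adults. The calls that ended were those of Dlk1. Probe sets with several or no symbols were added to the fit after the data had been seen. Low members near the floor, 3 arrays per group and probe sets that disagree in size (Meg3) limit what can be read from these values.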

Other observations

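The genes whose pattern over the 12 arrays was most like each member were found among 11449 genes. Each gene, and each member, was taken by its probe set with the highest mean. The measure was the root mean square difference of centred log2 values, which is a description with no test. For Igf2 they were Banf1 (0.236), Cenpx (0.238) and Casp8 (0.239). For Meg3 they were Crhr1 (0.158), Septin6 (0.160) and Mlc1, and for Peg3 Cep19 (0.0613), Slc39a10 and Fam20b. Plagl1 was closest to Ppil1 (0.109), Asf1a and Fubp1, Cdkn1c to Rcc1 (0.218), Hes6 and Zgrf1, and Grb10 to Timeless (0.0903), Cdca4 and AU020206. Mest was closest to Spata13 (0.304), Eme1 and Ttf2. Dlk1 had the least close neighbours, Slc43a3 (0.396), Chrna3 and Kel (0.471). The measure includes the difference between stages, and its part in the likeness was not tested.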
